A study of Mus musculus with 3 samples.

Results

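Sites that carried a peak in every library of a CUT&Tag study of Pan02 cells were examined, and 830 such sites were found among the 2805 Flag peaks on chromosomes 1 to 19 and X (29.6%, Wilson 95% interval 27.9 to 31.3%). A Flag peak was counted when it shared at least 1 bp with a peak of each of the 2 MYC lists, so the sites were chosen by the peak calls of all 3 libraries. The presence and strength of a peak at these sites are therefore given as a description, while their position against genes was not part of the choice. A further 761 Flag peaks met 1 MYC list, 437 of them that of POH1-Flag cells and 324 that of vector cells, and 1214 met none. The MYC lists shared 9190 sites that no Flag peak met.

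Pan02 is a mouse pancreatic cancer cell line, and Psmd14 encodes POH1, a proteasome subunit that removes ubiquitin from substrates. CUT&Tag tethers a transposase to an antibody on chromatin, so that DNA near the bound protein is tagged and sequenced. The 3 libraries, 1 per group, were anti-Flag in Pan02 cells that stably expressed POH1-Flag, anti-MYC in those same cells, and anti-MYC in Pan02 cells that carried the vector. Nothing in the labels gives the promoter of the transgene or whether the lines were clones, and a Flag library of vector cells or an antibody-free control was not analysed here. With 1 library per group replicate spread is unknown, and all intervals below cover counting error only. With the vector library set to 1, the relative depth read from the genome-wide background was 1.05 in Flag and 1.06 in POH1-Flag MYC. The lists held 2936, 22647 and 12175 peaks in the same order.

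MYC is a transcription factor that binds E-box sequences, mostly at active promoters and as a partner of MAX. Mouse chromosomes carry the centromere at the end where base numbering starts, flanked by satellite repeats, and telomere repeats cap both ends. Assemblies hold only part of the copies of such satellites, of ribosomal DNA and of other arrays, and reads from many copies can then be placed on few positions. Copy number was not measured here, and its part in the sites below was not tested.

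The promoter windows that a site met are shown first because they bear on both antibodies at once. Sequence was available as RefSeq windows of GRCm38.p6, from 250 bases before to 50 after each gene's start, and 4 of the 830 sites (0.482%, 0.188 to 1.23%) met such a window. None of the 761 Flag peaks that met 1 MYC list did so (a count of 0 allows up to 0.394%), nor did any of the 1214 that met none (up to 0.247%). Of the MYC sites without a Flag peak, 51.8% did. The 250 bases before the annotated start are printed for 3 genes, 5′ to 3′ on the gene's strand. For Gm40237, a predicted long non-coding RNA, the window is chr4:118547156-118547405 on the plus strand and the capitals mark a run of 20 bases that returned 6 times, every 44 bp. For Gm13822, a predicted gene beside Oasl1, the window is chr5:114922262-114922511 on the minus strand, and for Eef1a1 it is chr9:78481725-78481974 on the minus strand. In the last 2 windows the capitals mark the bases inside the Flag peak, 188 and 51 of them.
Gm40237: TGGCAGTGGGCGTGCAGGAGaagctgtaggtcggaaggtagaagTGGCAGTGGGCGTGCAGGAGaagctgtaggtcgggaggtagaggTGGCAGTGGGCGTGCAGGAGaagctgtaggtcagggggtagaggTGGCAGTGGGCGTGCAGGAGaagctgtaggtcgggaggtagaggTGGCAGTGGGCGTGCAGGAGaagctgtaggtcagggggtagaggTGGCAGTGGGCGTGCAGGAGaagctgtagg
Gm13822: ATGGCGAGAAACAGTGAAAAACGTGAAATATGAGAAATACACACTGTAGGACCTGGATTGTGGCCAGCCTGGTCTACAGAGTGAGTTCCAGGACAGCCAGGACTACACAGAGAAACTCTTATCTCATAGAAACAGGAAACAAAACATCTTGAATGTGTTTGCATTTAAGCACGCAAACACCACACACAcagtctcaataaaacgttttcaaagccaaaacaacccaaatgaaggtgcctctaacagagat
Eef1a1: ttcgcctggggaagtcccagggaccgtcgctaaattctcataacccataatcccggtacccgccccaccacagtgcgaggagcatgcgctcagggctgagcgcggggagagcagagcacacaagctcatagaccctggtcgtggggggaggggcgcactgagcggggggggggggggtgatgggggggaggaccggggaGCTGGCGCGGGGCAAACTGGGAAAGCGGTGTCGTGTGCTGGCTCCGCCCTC

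The Gm40237 site, chr4:118547153-118548736, had a summit pileup of 145 reads in Flag, 126 in POH1-Flag MYC and 102 in vector MYC. Its 3 summits lay within 37 bp of each other, at chr4:118547945-118547982, which is inside the site but beyond the printed window. The 20-base run of its window was found on either strand in 2 of the 32619 promoter windows of the table, both of them windows of this gene. The Gm13822 site, chr5:114922324-114922693, had 27 reads in Flag, 44 in POH1-Flag MYC and 38 in vector MYC, with the 3 summits at most 3 bp apart. At Eef1a1, the gene of a translation elongation factor, the Flag summit lay 182 bp from the summit of POH1-Flag MYC and 161 bp from that of vector MYC, while the MYC summits were 21 bp apart. The site had 15 Flag reads, against 59 MYC reads in POH1-Flag cells and 48 in vector cells. Guanine and cytosine made up 62.8% of the Gm40237 window, 42% of that of Gm13822 and 68% of that of Eef1a1, against a median of 52.4% over all windows. The E-box CACGTG, which reads the same on both strands, was in 0 of the 5 windows that the sites met (upper limit of the Wilson interval 43.4%), in 12.6% of the 6504 windows at MYC sites without a Flag peak and in 7.20% of all windows. At Prkd3 and at the first of the 2 Gm40237 windows the Flag peak met only bases after the start.

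Against annotated genes the sites lay near a gene end less often than did MYC sites without a Flag peak or the MYC lists as a whole. The summit was within 1 kb of an end of a protein-coding gene at 24 sites (2.89%, 1.95 to 4.27%), against 1.18% of Flag peaks that met 1 MYC list (0.623 to 2.23%), 0.824% of those that met none (0.448 to 1.51%) and 56.6% of MYC sites without a Flag peak. Over all MYC peaks the share was 36.3% in POH1-Flag cells and 45.3% in vector cells. Inside a gene and farther from its ends lay 33.0% of the sites, and 64.1% lay elsewhere. The median distance to the nearest gene end was 54810.5 bp at the sites, 64962 bp at Flag peaks of 1 MYC list, 68741.5 bp at those of none and 442 bp at MYC sites without a Flag peak, and over all MYC peaks it was 6498 bp in POH1-Flag cells and 2040 bp in vector cells. In this respect the sites resembled the other Flag peaks far more than MYC sites, although their gene-end share was the highest of the 3 Flag classes.

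Chromosome ends held many of the sites. Without chromosome lengths, an end was taken as the first or last gene or peak of any list on the chromosome. Within 5 Mb of either end lay 138 sites (16.6%, 14.2 to 19.3%), against 9.33% of Flag peaks of 1 MYC list (7.46 to 11.6%), 8.48% of those of none (7.04 to 10.2%), 10.6% of MYC sites without a Flag peak (9.95 to 11.2%) and 9.47% of protein-coding genes. These windows made up 7.78% of the chromosome spans. Neighbouring sites may not be independent, and with sites closer than 10 kb counted once the share was 13.5%. Within 100 kb of the first feature lay 47 sites (5.66%, 4.28 to 7.45%), against 1.31%, 0.329% and 0.0979% in the other classes, in the order above. The 47 sites made up 9 locations on 9 chromosomes when those within 100 kb of each other were joined, so the interval is too narrow. Within 100 kb of the last feature lay 20 sites (2.41%, 1.57 to 3.69%), against 0 of the 761 Flag peaks of 1 MYC list (up to 0.394%), 0.0824% of those of none and 0.109% of MYC sites without a Flag peak. Because the peaks themselves help to set these ends, the outermost annotated genes were also used alone, an alternative chosen after seeing the data. Beyond the last gene of the chromosome lay 17 sites on 16 chromosomes (2.05%, 1.28 to 3.26%), against 0 of the 761 Flag peaks of 1 MYC list (up to 0.394%), 0 of the 1214 of none (up to 0.247%) and 0 of the 9190 MYC sites without a Flag peak (up to 0.0326%). Before the first gene lay 35 sites at 7 locations (4.22%, 3.05 to 5.81%), against 0.657%, 0.0824% and 0.0653% in the same order.

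**Figure D1:**
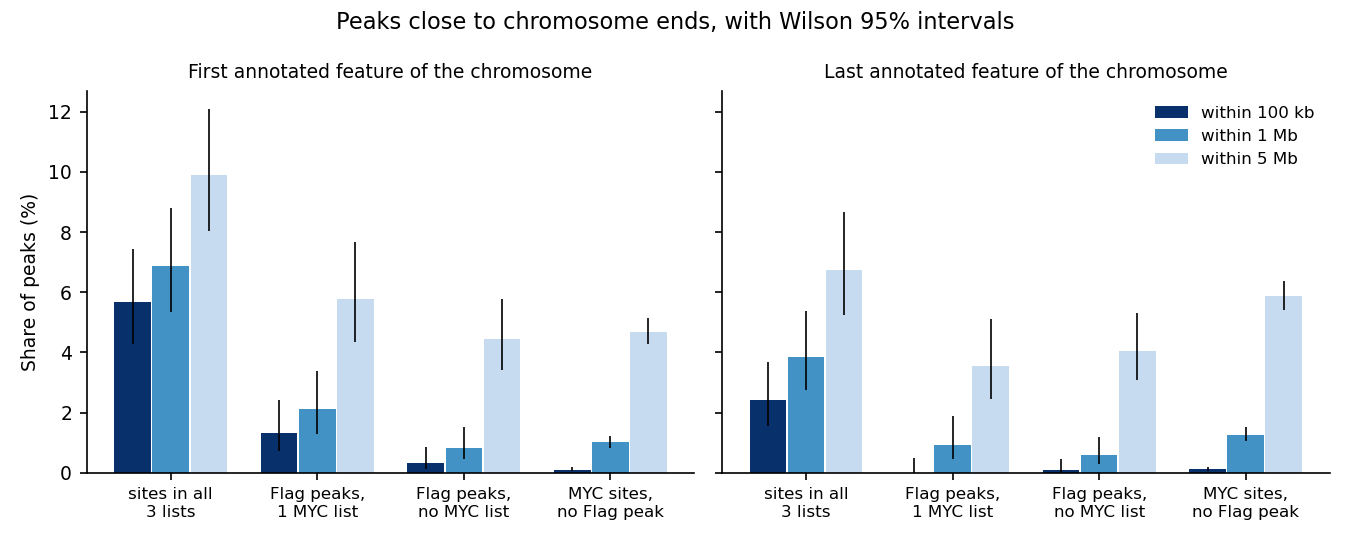
Share of each class of sites (percent, with Wilson 95% intervals as bars) near the first and the last feature of its chromosome. The 830 sites with a peak in all 3 lists stand highest at both ends, at 5.66% within 100 kb of the first feature and 2.41% within 100 kb of the last.

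At the far end the same pattern recurred on most chromosomes. On 16 of the 20 chromosomes the last peak of all 3 lists was one and the same site, and it ended beyond the last protein-coding gene. The 3 lists ended these peaks between 11 and 49 bp of each other. Across the 16 sites the pileup had a lowest, median and highest value of 23, 96.5 and 166 reads in Flag, of 18, 96.5 and 155 reads in POH1-Flag MYC and of 20, 85.5 and 147 reads in vector MYC. All 16 sites were within 2-fold in each pair of libraries once pileups were divided by each library's genome-wide background. So were 86.1% of all 830 sites, whose median Flag pileup was lower, at 19 reads. Chromosomes 6, 8, 9 and 15 did not end in such a shared peak. One of the 16 lay beside a gene, Wls, which encodes the carrier that brings WNT proteins to the cell surface. The Wls site, chr3:159939272-159939795, had 96 reads in Flag, 98 in POH1-Flag MYC and 81 in vector MYC, and its summit was 862 bp from the gene's end. The highest of the 16 in Flag and vector MYC was on chromosome 7, with 166 reads in Flag, 148 in POH1-Flag MYC and 147 in vector MYC. The highest in POH1-Flag MYC was on chromosome 12, with 161, 155 and 146 reads in that order. On 6 chromosomes one site was also the first peak of all 3 lists, with 34 to 395 Flag reads.

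The sites were also gathered into short runs. A chain was a run of sites in which each lay within 100 kb of the next. There were 59 chains of 2 or more, which held 171 sites (20.6%), and 659 sites stood alone. In the other Flag classes 13.7% and 14.4% of peaks had a neighbour of their own class within that distance, and 78.0% of the far more numerous MYC sites without a Flag peak did. The 11 chains of 4 or more held 68 sites.

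The longest chain, 15 sites at chr9:3000200-3038234, lay at the start of its chromosome and overlapped no annotated gene. Its pileups had a lowest, median and highest value of 110, 258 and 395 reads in Flag, of 72, 212 and 339 reads in POH1-Flag MYC and of 93, 249 and 375 reads in vector MYC. The background around the summits, taken from a window of 10 kb, was itself 79.5 times the genome-wide level in Flag, 64.3 times in POH1-Flag MYC and 82.4 times in vector MYC at the median site. All 15 sites were within 2-fold in every pair, against 86.1% of all 830 sites.

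The next chains lay in annotated arrays or at other chromosome starts. The 9 sites at chr11:3102209-3185616 spanned Sfi1, the gene of a centrosomal protein that binds centrins, and the pseudogene Pisd-ps1. They had a median of 35 reads in Flag, 31 in POH1-Flag MYC and 29 in vector MYC. The 8 sites at chr17:3006815-3082374, which spanned Pisd-ps2, a second pseudogene of the phosphatidylserine decarboxylase gene, had medians of 84, 54.5 and 55 reads in the same order. The 7 sites at chr5:15575475-15712200 lay among Speer4d and Speer4c, members of a testis-expressed gene family that occurs in many copies, with medians of 27, 18 and 19 reads. The 5 sites at chr4:3050109-3091128 had medians of 47, 45 and 41 reads and met no annotated gene. Pseudogenes and multi-copy families share sequence with other copies, so reads there are uncertain as to the copy they came from. Every site of these 4 chains was within 2-fold in all pairs, as were 86.1% of all 830 sites.

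The median pileups of a few chains were less equal. The span of the chain at chr17:39843194-39848132 overlapped the ribosomal RNA pseudogene Rn18s-rs5 and AY036118. Of its sites, only chr17:39847697-39848132 lay over Rn18s-rs5. The 4 sites of this chain had a median of 66 reads in Flag, 109 in POH1-Flag MYC and 102 in vector MYC. Their median log2 ratio of scaled pileups was -0.92 for Flag over POH1-Flag MYC, -0.64 for Flag over vector MYC and 0.13 between the MYC libraries. Of these 4 sites, 2 were within 2-fold in all pairs. Local background there was 29.8 times the genome-wide level in Flag, 58.6 times in POH1-Flag MYC and 48.6 times in vector MYC. The opposite direction was seen in 4 sites at chr8:55363983-55381982, among predicted genes that include Gm51573, with a median of 31.5 reads in Flag, 16 in POH1-Flag MYC and 20 in vector MYC. The median log2 ratio of scaled pileups was 0.74 for Flag over POH1-Flag MYC and 0.53 for Flag over vector MYC. All 4 sites were nonetheless within 2-fold in every pair. Background moved with these ratios too, at 8.77 times in Flag, 4.89 times in POH1-Flag MYC and 5.92 times in vector MYC. In the 4 sites at chr15:91907450-91992715 the medians were 25.5 reads in Flag, 12.5 in POH1-Flag MYC and 20.5 in vector MYC, and 3 were within 2-fold in all pairs. The part of local background in these differences was not tested. The remaining chains of 4 lay at chr10:3109551-3116997, with medians of 120.5 reads in Flag, 92 in POH1-Flag MYC and 93.5 in vector MYC, and at chr14:19415697-19418996, with 142.5, 150 and 188 reads in that order. Neither met an annotated gene. The last chain of 4, chr17:13550663-13655257, overlapped the non-coding gene 2700054A10Rik and had medians of 74.5, 58 and 65 reads, with 3 of its sites within 2-fold in all pairs. It held the highest Flag pileup of all, 413 reads at chr17:13550663-13553188, against 343 in POH1-Flag MYC and 352 in vector MYC.

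**Figure D2:**
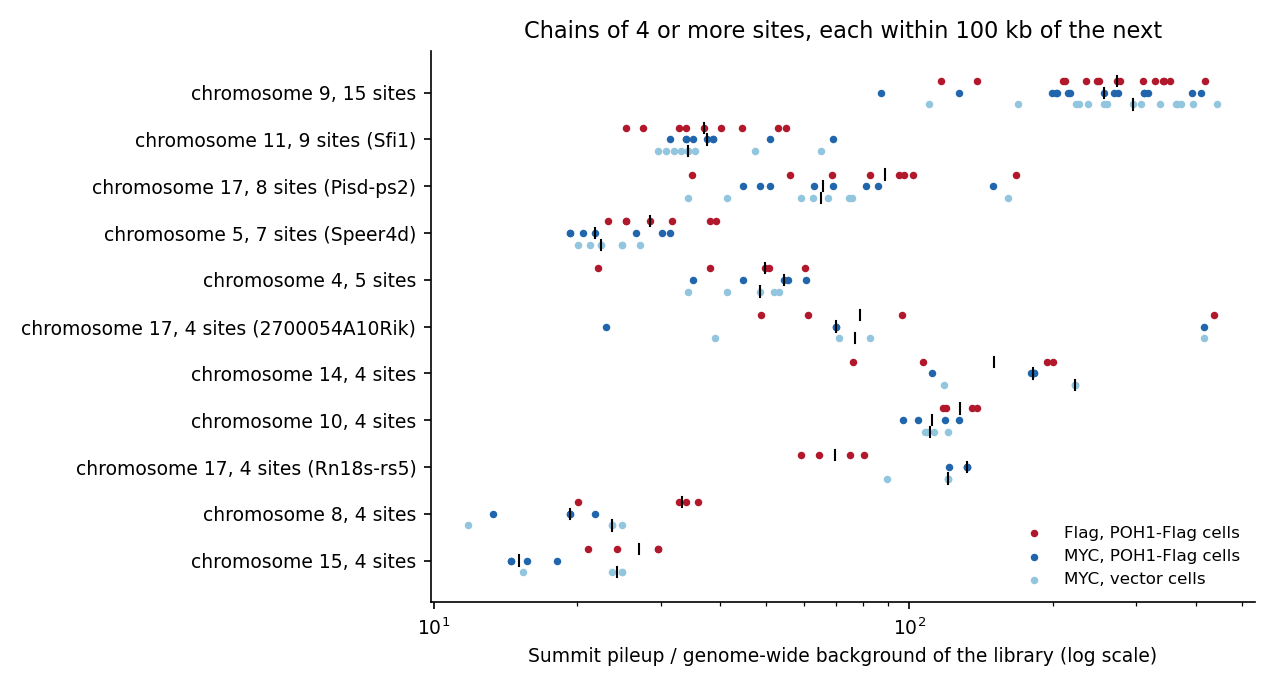
Summit pileup divided by the library's genome-wide background (log axis) at each site of the 11 chains of 4 or more sites, with Flag, POH1-Flag MYC and vector MYC as rows of points and a tick at each median. In most chains the 3 rows cover the same range. In the chain labelled Rn18s-rs5 the Flag points lie lower, and in the chain on chromosome 8 most lie higher.

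Other strong sites stood in smaller groups or alone. The widest Flag peak, chr1:24613181-24616114, covered 2934 bp over Gm10925, a pseudogene that the RefSeq table lists with the mitochondrial gene name mt-Atp6 among its synonyms. It had 271 reads in Flag, 241 in POH1-Flag MYC and 230 in vector MYC, on a background 107.7, 107.3 and 97.6 times the genome-wide level. The neighbouring site over the pseudogene Gm10222 had 248 reads in Flag, 212 in POH1-Flag MYC and 209 in vector MYC. The site at chr2:98666200-98667380, 1035120 bp from the nearest gene end, that of Lrrc4c, had 400 reads in Flag, 327 in POH1-Flag MYC and 390 in vector MYC. Inside Gm525 a site at chr11:89081617-89082164 had 285, 223 and 227 reads, and one at chr9:35305141-35305715 had 281, 231 and 283 reads. Inside Stam2, the gene of an endosomal sorting protein, chr2:52696608-52698306 had 50, 57 and 40 reads. At chr13:74528524-74530752, 36540 bp from the nearest end of Zfp825, there were 141, 102 and 101 reads.

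Over genes shorter than 20 kb the sites overlapped few features. Pseudogenes were met by 8 sites (0.964%), against 0.456% of other Flag peaks and 0.522% of MYC sites without a Flag peak. Protein-coding genes of that size were met by 16 sites (1.93%), against 1.72% of other Flag peaks and 30.8% of MYC sites without a Flag peak. The intervals of the pseudogene shares, 0.489 to 1.89% for the sites and 0.240 to 0.864% for other Flag peaks, overlapped. Genes of short or other non-coding RNAs were met by 3 sites (0.361%, 0.123 to 1.06%). The share was 0.0506% of other Flag peaks (0.00894 to 0.286%) and 1.35% of MYC sites without a Flag peak. Of the 3 sites, 2 lay over Rn7s1 and Rn7s2, copies of the 7SL RNA of the signal recognition particle, and 1 over the predicted gene Gm9919. The Rn7s2 site, chr12:69361189-69361656, had 19 reads in Flag, 45 in POH1-Flag MYC and 54 in vector MYC. No site overlapped an annotated miRNA.

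Clustered gene families did not hold more of the sites than of other Flag peaks. A gene of the 27 listed families lay within 100 kb of 64 sites (7.71%, 6.08 to 9.73%), against 7.88% of all Flag peaks and 11.4% of MYC sites without a Flag peak. Vomeronasal receptor genes, which encode pheromone receptors, lay near 13 sites (1.57%), against 0.658% of other Flag peaks and 0.403% of MYC sites without a Flag peak. Olfactory receptor genes lay near 11 sites (1.33%), against 2.13% of other Flag peaks and 1.0% of MYC sites without a Flag peak. Zinc finger genes, which encode DNA-binding proteins, lay near 10 sites (1.20%), against 1.47% of other Flag peaks and 5.78% of MYC sites without a Flag peak. The one on chromosome 16 lay near Rsl1d1 alone, which was matched by its symbol's prefix and is not a zinc finger gene. Speer genes lay near 7 sites (0.843%), against 10 other Flag peaks (0.506%) and 0.0435% of MYC sites without a Flag peak. The 7 sites were the single chain on chromosome 5, so they count as 1 location. Symbols of families best known from X-linked testis clusters were near 6 sites (0.723%, against 0.608% of other Flag peaks). These included Cypt4 on chromosome 9 and Ssx2ip on chromosome 3, which was matched by its symbol's prefix and is not an SSX family gene. Serpins, a family of protease inhibitors, were near 3 sites (0.361%, against 0.253% of other Flag peaks and 0.446% of MYC sites without a Flag peak).

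The 24 sites near a gene end were less often within 2-fold than the sites as a whole. Between Flag and POH1-Flag MYC 66.7% of them were, against 89.6% of all 830, and between Flag and vector MYC 87.5% were, against 95.3%. Across all 3 libraries, the MYC pair included, 14 of the 24 (58.3%, 38.8 to 75.5%) were within 2-fold, against 715 of 830 (86.1%, 83.6 to 88.3%). Their median log2 ratio of Flag over POH1-Flag MYC was -0.30, and 8 of the 24 were 2-fold or more lower in Flag. Among all 1267 sites with a peak in both of these lists, 3.47% were 2-fold or more lower in Flag and 5.13% were 2-fold or more higher. None of the 24 was 2-fold or more higher in Flag. Between the MYC libraries their median log2 ratio of POH1-Flag over vector was 0.28 (0.13 to 0.76), with 2 of 24 (8.33%) 2-fold or more higher and 0 lower, where 16.3% and 0.21% of all 10010 sites with both MYC peaks were so.

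The sites lower in Flag were at genes of varied function. Eef1a1, given above, had the lowest scaled ratio of Flag over POH1-Flag MYC near a gene end, 0.222 (0.117 to 0.397). Etnk1, the gene of an ethanolamine kinase, had 9 reads in Flag, 27 in POH1-Flag MYC and 17 in vector MYC, a ratio of 0.291 (0.121 to 0.638). Nucks1, which encodes a nuclear DNA-binding protein, had 11, 28 and 16 reads and a ratio of 0.343 (0.154 to 0.711). The other 5 were at Zfp746 (0.350), Rps29 beside the 7SL RNA gene Rn7s1 (0.384), Anp32e (0.414), Asmt (0.427) and Lars2 (0.453). Rps29 encodes a ribosomal protein, Anp32e a chaperone of the histone variant H2A.Z, Asmt an enzyme of melatonin synthesis and Lars2 the mitochondrial leucyl-tRNA synthetase. At these 8 sites the Flag pileup was below that of MYC in both cell lines, and every interval of the ratio to POH1-Flag MYC lay below 1. The interval of the ratio to vector MYC lay below 1 at Eef1a1, Rps29 and Lars2. It held 1 at Etnk1, Nucks1, Zfp746, Anp32e and Asmt.

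At most other gene-end sites the interval of the Flag to POH1-Flag MYC ratio held 1. It lay below 1 at Oasl1, beside the Gm13822 site given above, with a ratio of 0.536 (0.319 to 0.885). Kdm1a, the gene of a histone demethylase, had 26 reads in Flag, 24 in POH1-Flag MYC and 13 in vector MYC. Foxa3, which encodes a forkhead transcription factor of endoderm, had 22, 24 and 11 reads. There, and at the nucleotide receptor gene P2ry6, the interval of the scaled ratio of POH1-Flag over vector MYC lay above 1. The ratios were 2.23 (1.05 to 5.05) and 2.46 (1.13 to 5.75), and at Asmt the ratio was 1.69 (1.02 to 2.87). Of all 10010 sites with both MYC peaks, 20% had an interval above 1. Polr3gl, which encodes a subunit of RNA polymerase III, had 19, 17 and 15 reads. The intervals of the Flag to POH1-Flag MYC ratio held 1 at Kdm1a, Foxa3 and Polr3gl, as they did at Wls, Adgb, Vmn2r2, P2ry6, Gse1, Prkd3 and Duxf3. With 9 to 33 reads per library at all of these but Wls, a 2-fold difference was not always detectable. Within D5Ertd579e, 2 sites lay near the ends of the predicted gene Gm32584 and had 56 and 40 reads in Flag, 59 and 47 in POH1-Flag MYC and 55 and 46 in vector MYC. The highest ratio near a gene end, 1.78 (1.08 to 3.0), was at the predicted gene Gm51572, with 51 reads in Flag, 25 in POH1-Flag MYC and 28 in vector MYC. The predicted gene Gm51573 had 34, 18 and 21 reads and a ratio of 1.65 (0.906 to 3.10). Between Gm51593 and Gm51594 there were 19, 11 and 10 reads and a ratio of 1.51 (0.683 to 3.51).

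Flag peaks at the sites were wider than other Flag peaks, and their MYC peaks were narrower than the MYC peaks of sites without a Flag peak. The median width in the Flag list was 400 bp (quartiles 311.25 and 517 bp), against 315 bp for Flag peaks of 1 MYC list and 274 bp for those of none. In the POH1-Flag MYC list the sites had a median width of 353 bp, against 649 bp at MYC sites without a Flag peak and 434 bp over all peaks of that list. In the vector MYC list it was 363 bp, against 398 bp over all its peaks. The sites were chosen by overlap, and a wider peak is more easily overlapped. How much of the Flag difference follows from this was not tested. At like pileups of 18 to 31 reads the Flag medians were 403 bp at the sites, 339 bp with 1 MYC list and 310 bp with none, and the POH1-Flag MYC medians were 365 bp at the sites and 656 bp elsewhere.

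**Figure D3:**
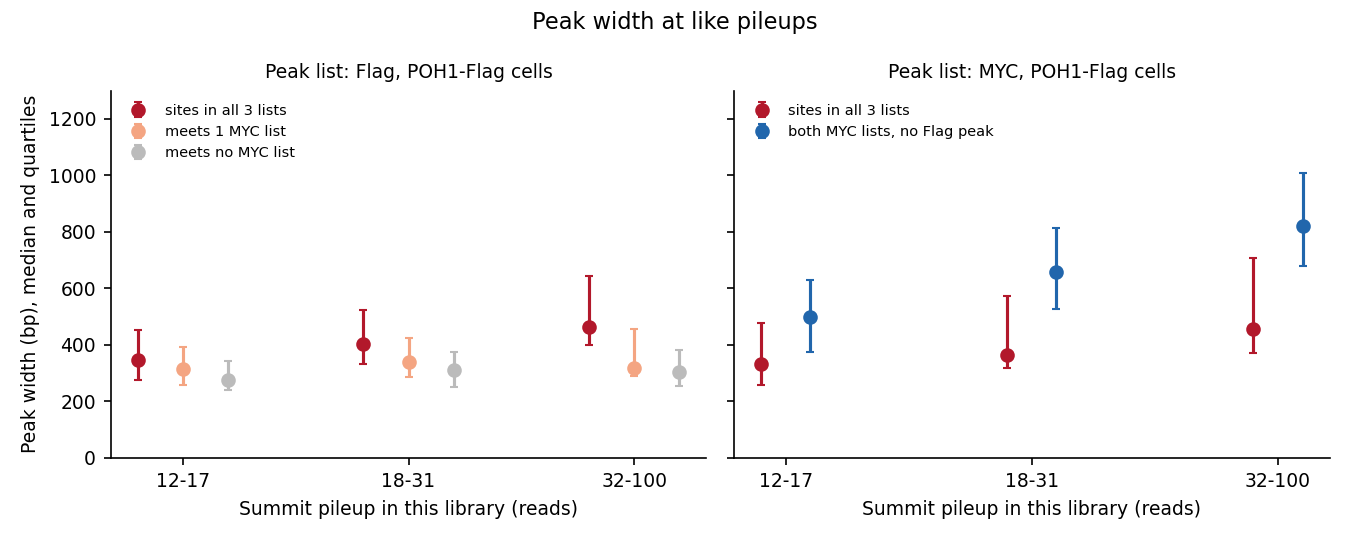
Peak width (bp) by class of site in bands of like summit pileup, with points at medians and bars for quartiles, in the Flag list and in the POH1-Flag MYC list. In each band the sites are wider than other Flag peaks and narrower than MYC sites without a Flag peak. The highest Flag band holds 22 peaks of 1 MYC list and 4 of none.

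The highest peaks of every list by the authors' −log10 q were at the sites. The rule that chose the sites used the peak calls, so their ranks and folds are a description only. All of the 50 highest peaks of each library on chromosomes 1 to 19 and X were at these sites. Among the 100 highest it was 99 in Flag, 77 in POH1-Flag MYC and 94 in vector MYC. Among the 500 highest it was 389 (77.8%), 117 (23.4%) and 168 (33.6%) in the same order. Over the whole lists, the sites were 830 of 2805 Flag peaks. They were paired with 821 of 22241 peaks of POH1-Flag MYC and 824 of 11925 of vector MYC. In the top decile of each list the sites made up 92.5% in Flag, 8.45% in POH1-Flag MYC and 19.2% in vector MYC, and in the lowest decile 6.07%, 2.02% and 3.36%. The authors' fold enrichment in Flag was 10 or more at 145 sites (17.5%), against 0.394% of Flag peaks of 1 MYC list and 0.165% of those of none. Local background, taken from a 10 kb window that includes the peak's own reads and those of close neighbours, is high at strong peaks in part by construction. It was more than 10 times the genome-wide level in Flag at 57 sites (6.87%), against 1.84% and 0.247% in the other Flag classes.

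**Figure D4:**
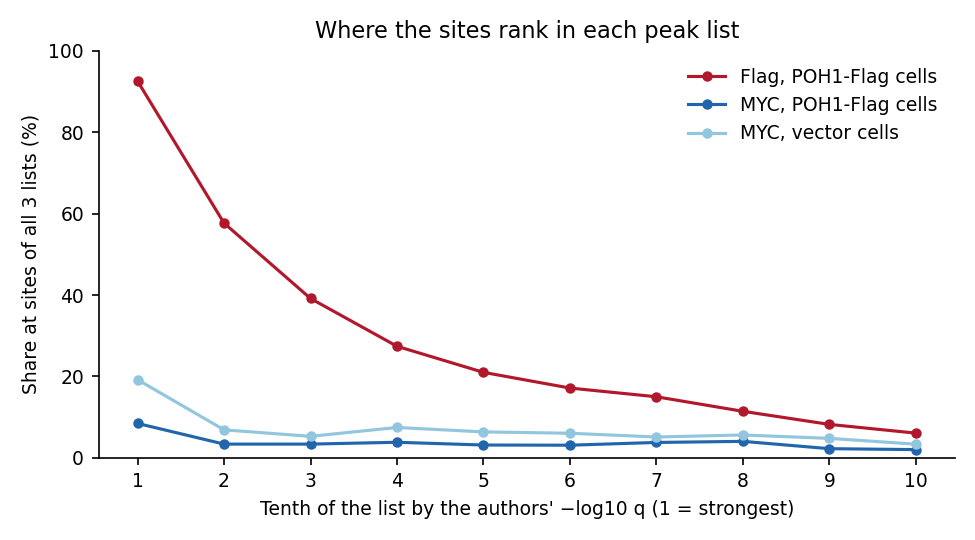
Share of peaks (percent) that belong to sites with a peak in all 3 lists, by decile of the authors' −log10 q within each list, strongest decile first. In Flag the share is 92.5% in the strongest decile and 6.07% in the weakest, and the top decile stands highest in all 3 lists.

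Across the 830 sites, pileups of the 2 antibodies ran close. Flag over POH1-Flag MYC, with pileups divided by each library's genome-wide background, had a median log2 ratio of 0.19 (0.15 to 0.25). Of the sites, 46 (5.54%) were 2-fold or more higher in Flag and 40 (4.82%) lower. Among all 1267 sites with both peaks, 5.13% and 3.47% were so. For Flag over vector MYC the median was 0.16 (0.14 to 0.20), with 17 sites (2.05%) higher and 22 (2.65%) lower. Among all 1154 sites with both peaks, 1.65% and 2.25% were so. Within 2-fold were 89.6% of the sites in the first comparison and 95.3% in the second. Flag peaks that met 1 MYC list alone were within 2-fold of it more often. The shares were 94.7% of 437 for POH1-Flag MYC and 98.1% of 324 for vector MYC. Closeness of the pileups was thus not particular to the sites. With the local background at the summit in place of the genome-wide one, the first median was -0.10 and the second 0.000793, so no direction is read from either. The 95% interval of the ratio lay above 1 at 32 sites and below 1 at 54 for Flag over POH1-Flag MYC (3.08% and 4.5% of all 1267), and above at 20 and below at 33 for Flag over vector MYC (1.91% and 3.21% of all 1154). At a median of 19 reads in Flag and 15 in each MYC library, these intervals are wide. The largest and smallest of the 3 scaled pileups differed by 1.46-fold at the median site. This was 1.19-fold within 1 Mb of the first feature, where all 57 sites were within 2-fold in every pair, and 1.20-fold within 1 Mb of the last, where 26 of 32 were.

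Between the cell lines the MYC signal at most of the sites was within 2-fold, and its median ratio was lower than at MYC sites without a Flag peak. POH1-Flag MYC over vector MYC had a median log2 ratio of -0.05 (-0.08 to 0.03), with 15 sites 2-fold or more higher and 13 lower, and 96.6% within 2-fold. At MYC sites without a Flag peak the median was 0.67 (0.66 to 0.67), with 1614 of 9190 (17.6%) higher and 8 lower, and over all 10010 sites of both lists 16.3% were higher and 0.21% lower. The interval lay above 1 at 23 sites and below 1 at 12 (20% and 0.14% of all 10010). The sign of the median at the sites changed with local scaling, to 0.067. The classes differ in gene-end share and in local background too, and the part of these in the contrast was not tested.

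**Figure D5:**
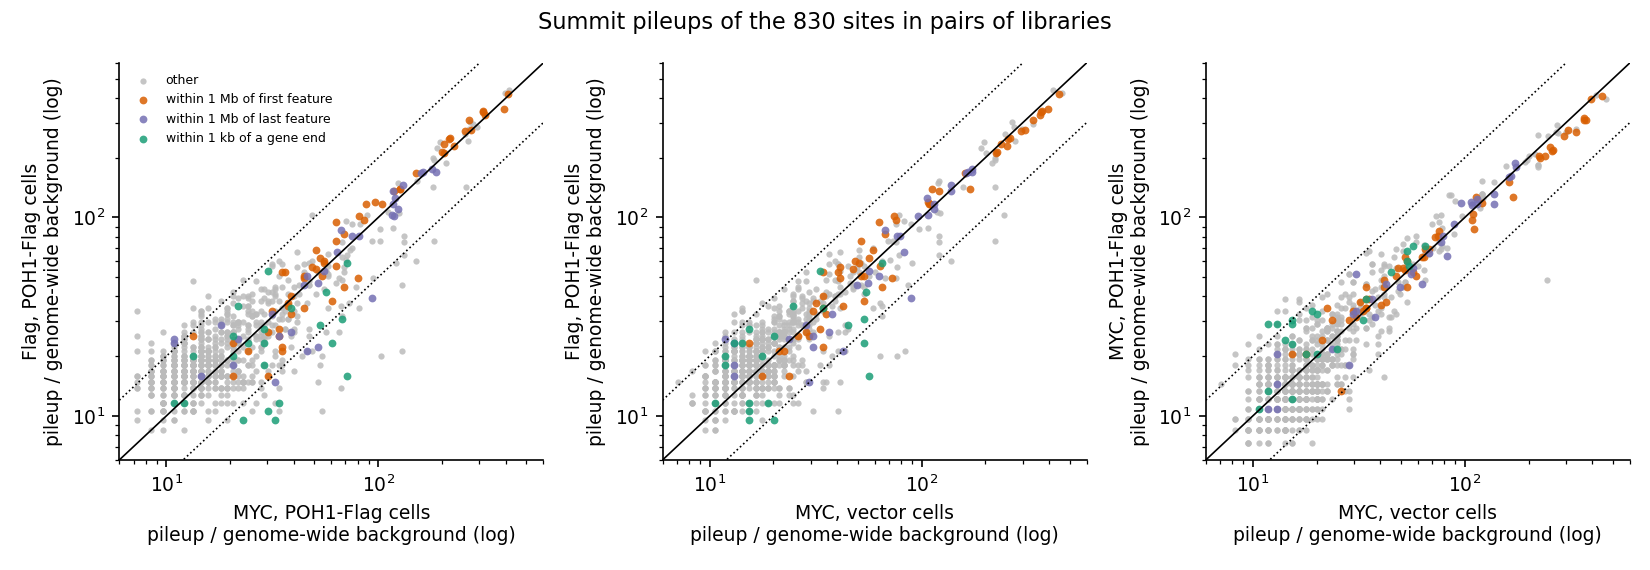
Summit pileup divided by the genome-wide background (log axes) at each of the 830 sites for the 3 pairs of libraries, with lines at equal and 2-fold pileup. Most points lie between the 2-fold lines, 89.6% for Flag and POH1-Flag MYC, 95.3% for Flag and vector MYC and 96.6% for the MYC pair.

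As a description across sites, Pearson's r of log2 pileups was 0.860 for Flag and POH1-Flag MYC, 0.903 for Flag and vector MYC and 0.920 for the MYC pair (n = 830 sites, which share their libraries). Spearman's rank correlation was lower, at 0.699, 0.749 and 0.782 in the same order. For the MYC pair at MYC sites without a Flag peak, Pearson's r was 0.782 and Spearman's 0.775. The local background over 10 kb, which includes the reads of the peak and is thus not a separate measure, had r of 0.903, 0.949 and 0.959 in the same order. Among the 380 sites with a Flag background under 2 times the genome-wide level, r of pileups was 0.503, 0.615 and 0.744. Summits of Flag and POH1-Flag MYC were a median of 44 bp apart and 54.8% were within 50 bp (51.4 to 58.2%), against 36.4% at Flag peaks that met that list alone (32 to 41.0%). For Flag and vector MYC it was 39 bp and 56.4%, against 40.7%. MYC summits of the cell lines were 40 bp apart at the sites, and 55.9% were within 50 bp, against 38.9% at MYC sites without a Flag peak. The compared classes also differed in peak width and pileup, and the part of these in the summit distances was not tested. The MYC peaks covered a median of 85.4% of the Flag peak in POH1-Flag cells and 87.6% in vector cells.

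The sites with the most unequal Flag and POH1-Flag MYC pileups are given as a description, since they were picked for that ratio and each rests on 1 library per antibody. Highest in Flag relative to POH1-Flag MYC was chr7:93086129-93086537, 4620 bp from Fam181b, with 32 reads in Flag, 6 in POH1-Flag MYC and 12 in vector MYC, a scaled ratio of 4.66 (1.92 to 13.6). The next were chr17:9030940-9031324 with 45, 11 and 24 reads (3.57, 1.82 to 7.66), chr16:69619399-69619827 with 24, 6 and 10 (3.50, 1.39 to 10.5), and chrX:9433715-9434141, 1262 bp from Cybb, with 20, 6 and 8 (2.91, 1.13 to 8.86). Against vector MYC the first of these had a ratio of 2.38 (1.20 to 5.08), while the intervals held 1 at the others (1.68, 2.15 and 2.24). At chr17:9030940-9031324 the MYC libraries also differed, with a ratio of POH1-Flag over vector of 0.469 (0.207 to 0.994). Cybb encodes the catalytic subunit of the phagocyte NADPH oxidase. Lowest was a site inside Gm40363, chr6:47686078-47686566, with 20 reads in Flag, 107 in POH1-Flag MYC and 71 in vector MYC (0.163, 0.0959 to 0.265). A second site nearby, chr6:47772862-47773120, had 19, 85 and 65 reads (0.195, 0.112 to 0.324). At chr8:123434196-123434428 there were 10, 45 and 34 reads (0.194, 0.0873 to 0.391), and inside Dcaf5, which encodes a substrate adaptor of a cullin ubiquitin ligase, 13, 55 and 29 reads (0.207, 0.104 to 0.383). At these 4 low sites both MYC libraries stood above Flag.

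Sites were spread unevenly over chromosomes, as all Flag peaks were. Chromosomes 1, 2 and 3 held 303 sites (36.5%, 33.3 to 39.8%), against 39.0% of all Flag peaks, 19.7% of MYC sites without a Flag peak and 20.5% of the chromosome spans. Sites per Mb were 0.655 on chromosome 1, 0.598 on chromosome 2 and 0.446 on chromosome 3. Median Flag background was 2.22 times the genome-wide level at sites on these 3 chromosomes and 2.02 times on the others. Copy number of the chromosomes was not measured.

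Just inside the overlap limit lay sites that shared 1 bp with a MYC peak (chr3:77927316-77927668), 5 bp (inside Pbx3) and 21 bp (inside Mtarc2), with 19, 12 and 13 Flag reads. Just outside lay Flag peaks at 34, 36 and 42 bp from the missing list, with 12, 13 and 12 Flag reads.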

How the data were processed

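CUT&Tag of Pan02 cells gave 1 deposited peak list per library, on GRCm38/mm10 per the submitters' processing notes, which list MACS2 (2.2.7.1), BWA (0.7.17-r1188), Trim Galore (0.6.6) and FastQC (0.11.9) with no role or settings. How duplicates were handled, and any control or blacklist, is not given in the sources used here. The authors' deposited fold enrichment is a linear ratio, and the deposited −log10 p and −log10 q belong to each summit. The score, as deposited, equals the truncated −log10 q times 10 in nearly all peaks. The lowest −log10 q was 1.36 in Flag, 1.30 in POH1-Flag MYC and 1.30 in vector MYC.

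The deposited fold is (k + 1)/(λ + 1) and the deposited p the Poisson tail, which were solved for the summit pileup k and local background λ. They gave whole reads for 100% of peaks within 0.01, and λ fell on whole reads in 10 kb windows of the same library. The lowest λ (0.946, 0.826 and 0.845 reads in Flag, POH1-Flag MYC and vector MYC) was the genome-wide background, and pileups were divided by it. Each site was paired with its highest overlapping MYC peak. Shares have Wilson 95% intervals, ratios exact conditional Poisson intervals and medians order-statistic intervals, which cover counting error only. PCR duplicates, if kept, make them too narrow. A count of 0 allows 3 counts.

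Genes and promoter windows came from RefSeq tables of GRCm38.p6. No genome sequence was used, so site sequences are not shown beyond promoter windows. Of protein-coding genes 21523 were used, and 108 entries with coordinates under 3 Mb, which belong to patches, were left out. No test was made, since each group has 1 library. Sites named were the strongest in all lists, the longest chains, the widest, the most unequal, those at the overlap limit and all near a gene end. Other chains, sites and genes shown were chosen after their values were seen. The members and lists were chosen with earlier results of these data known. Alternatives were other peak thresholds, overlap rules, windows and scalings. The steps were tested on simulated data. Python 3.11.15, numpy 2.4.6, pandas 2.3.3, scipy 1.17.1 and matplotlib 3.10.9 were used.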

Additional observations from a re-analysis of the deposited data

Results flagged for a closer look

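Peaks outside chromosomes 1 to 19 and X entered no comparison above. Of 131 such Flag peaks, 82 met a peak of both MYC lists (62.6%, 54.1 to 70.4%), against 29.6% on chromosomes 1 to 19 and X. They comprised 77 of 108 peaks on unplaced contigs, 4 of 5 on the mitochondrial genome and 1 of 18 on Y. The signal was flagged because it appears in data outside the main measurement, and no control library was there to set it against.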

How the results depend on the processing

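The share of Flag peaks that met both MYC lists was 29.6%. It was 49.9% with a −log10 q of at least 10 in all lists, 24.5% with at least 50% of the Flag peak covered, 25.6% with the Flag summit inside both MYC peaks, and 7.17% with MYC lists as short as the Flag list. The gene-end share was 1.33% with 500 bp and 9.16% with 5 kb. The chromosome-end share was 12.2% with 2 Mb, 25.4% with 10 Mb, 13.5% with sites within 10 kb counted once, and 24.4% and 34.0% where −log10 q reached 5 and 10. The share with a neighbouring site was 14.9% within 20 kb, 58.7% within 1 Mb and 23.9% where −log10 q reached 10. The family share was 2.65% within 10 kb and 19.5% within 500 kb. Median width was 414 and 459 bp at the 2 stricter thresholds and 385 bp with 50% covered. The median log2 of Flag over POH1-Flag MYC was 0.39 without scaling, 0.40 by background per kb, 0.14 without chromosomes 1, 2 and 3 (an alternative chosen after seeing the data) and -0.10, a reversed sign, by local background. For Flag over vector MYC it was 0.32, 0.25 and, by local background, 0.000793, and for POH1-Flag MYC over vector MYC -0.082, -0.17 and 0.067. The cause of these shifts was not tested, apart from windows and shorter lists that change the count by construction. With ends set by the outermost genes alone, also chosen after seeing the data, the chromosome-end share was 16.7%. This and the other 16 values stayed within the main interval. No paired analysis was possible because each group has 1 library, and for the same reason no replicate could be left out. Depth limits single sites, most of which had few reads.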
